A study of Saccharomyces cerevisiae with 24 samples.

Results

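The comparison described here asks how the change of each yeast gene on heat shock differed between a strain that lacks both PBF1 (TOD6, YBL054W) and PBF2 (DOT6, YER088C) and its wild type, and whether that difference was set by the level before or by the level after the shock. It uses 12 of the 24 arrays of the series: BY4741, the wild type, and delta-pbf1 delta-pbf2, the double deletion, each with 3 arrays at 0 min and 3 at 20 min. Members were chosen from the labels of strain and time, not from measured values. Cells of both strains were grown at 25 °C. One portion of every culture was collected at 0 min and another after 20 min at 37 °C. BY4741 is a MATa haploid laboratory strain with auxotrophic deletions. The labels do not say how many clones of the double deletion were used.

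TOD6 and DOT6 encode related Myb-type proteins with the PAC motif as their binding site, which lies in promoters of ribosome production genes, and recruit the Rpd3L histone deacetylase to repress them. Signals from TORC1 and protein kinase A keep both repressors phosphorylated and inactive in growing cells. On heat shock yeast lowers its ribosome production genes together and raises chaperone and general stress genes. A response difference between 2 strains has 2 parts: the strains may end at different levels after the shock, or they may start from different levels before it.

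Signals are linear array intensities, and all differences below are on the log2 scale. For each gene the response difference is the change from 0 to 20 min in the double deletion minus that in the wild type. It equals the strain difference at 20 min minus the strain difference at 0 min, each taken as double deletion minus wild type. Values are limma estimates ± standard error with p-values adjusted by Benjamini-Hochberg over 5395 genes, and a gene was called at an adjusted p of at most 0.05. A called gene was assigned mainly to 20 min or mainly to 0 min where limma also called the strain difference of that time as the larger part, and was left undecided otherwise.

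The median signal of the genes lay between 453 and 565 on these 12 arrays, and 96.7% to 99.1% of genes were above background, the 95th percentile of probe sets for genes outside Saccharomyces cerevisiae. TOD6 gave signals of 575, 466 and 351 in the wild type at 0 min and of at most 7.11 on every array of the double deletion. DOT6 gave 778 to 953 in the wild type and 6.1 to 11.9 in the double deletion, where 1 array, at 0 min, was above background. URA3, a gene of uracil synthesis that BY4741 lacks, was at background on all 6 wild type arrays and gave 1886, 1737 and 1746 in the double deletion at 0 min and 846, 922 and 695 at 20 min. The strains therefore differed in URA3 as well as in the deleted genes. Of the genes next to the deleted ones, TRP2, the second gene past DOT6 in the reference order, had the largest response difference (0.96 ± 0.09, adjusted p = 1.44e-07). YBL055C (0.47) and PIN4 (0.52) by TOD6, and AIM10 (-0.40) and PTC2 (-0.29) by DOT6, were also called. PTC3, SAS3 and SBH1 were not called, and among all genes 27.8% were called.

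The response differed for 1498 of 5395 genes (27.8%). It was higher in the double deletion for 809 genes (15%) and lower for 689 (12.8%), and at least 2-fold for 196 and 121 of them. The level after the shock accounted for most: of the 809, 570 were set mainly at 20 min (10.6% of genes tested), 72 mainly at 0 min (1.33%) and 167 were undecided (3.1%). Of the 689, 494 were set mainly at 20 min (9.16%), 31 mainly at 0 min (0.575%) and 164 were undecided (3.04%). The split between higher and lower depended on the scaling, with 54.0% of calls higher here and 36.9% (612 higher, 1047 lower) after centring each array on its median gene. Centring by the spiked-in poly(A) transcripts, whose mean log2 signal ranged from 5.05 to 7.32 over the 12 arrays, left 4 higher and 2 lower calls, with 231 genes at an unadjusted p under 0.05.

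**Figure D1:**
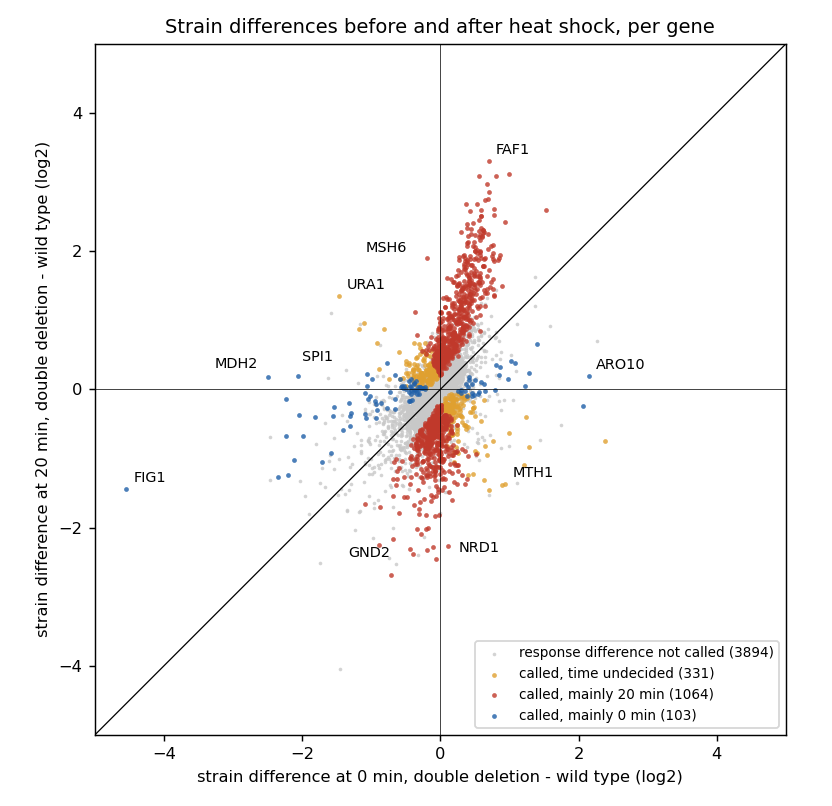
Each point is a gene, with the strain difference (double deletion minus wild type, log2) at 0 min on the horizontal axis and at 20 min on the vertical axis; the diagonal marks equal differences at both times, that is a response difference of 0. TOD6, DOT6 and URA3 lie outside the range and are not drawn. Genes set mainly at 20 min (red, 1064) spread along the vertical axis, and those set mainly at 0 min (blue, 103) along the horizontal one.

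The 570 genes with a higher response set at 20 min were mostly genes that heat shock represses. In the wild type 444 of them fell, and in the double deletion 317 of these 444 also fell, 95 were not called and 32 rose. Of all genes, heat shock was called for 80.7% in the wild type and 79.4% in the double deletion, and 29.7% and 30.9% fell. Their median strain difference was already 0.22 at 0 min and reached 0.93 at 20 min. At 0 min 194 were called higher in the double deletion, 2 lower and 374 not called.

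Ribosome biogenesis genes made up a large share of this group. Of 152 tested, 123 had a higher response, each set mainly at 20 min, 1 had a lower one and 28 were not called, against 15% higher among all genes. The median response difference was 1.05, against -0.00 over all genes. The median strain difference was 0.40 at 0 min and 1.49 at 20 min, and 66 of the 152 were called higher at 0 min (8.47% of all genes) and 143 at 20 min (20.9% of all genes). The 66 were 30 without the wild type's 0 min array of replicate 3 and 31 and 34 without the double deletion's of replicates 1 and 2. They became 82 after median centring, 40 after quantile normalization, 30 after hybridization control centring and 0 after spike-in centring. The 123 became 93 after hybridization control and 2 after spike-in centring, with median response differences of 1.02 and 0.98. All 123 had a strain difference above 0 at 0 min, so for these genes the response difference is smaller than the strain difference reached at 20 min. In the wild type 149 fell. In the double deletion 122 fell, 4 rose and 26 were not called, and 41 of the 152 had a mean signal after the shock at or above that of the unshocked wild type.

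The double deletion's 3 cultures were alike in this. The median response of the 152 genes was -1.65, -2.05 and -2.06 in the wild type cultures and -0.68, -0.73 and -0.79 in the double deletion. The 2 sets of cultures did not overlap, and the two-sided exact permutation p was 0.1, the smallest that 3 against 3 allows. Against the wild type mean, the medians of the double deletion cultures were 0.49, 0.46 and 0.26 at 0 min and 1.67, 1.53 and 1.25 at 20 min. In the authors' deposited table of log2 ratios the medians of these genes were -2.05 in the wild type and -0.77 in the double deletion.

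FAF1 (YIL019W), a small subunit processing factor, shows the pattern array by array. Its signal was 640, 620 and 612 in the wild type at 0 min and 104, 88.5 and 77.5 at 20 min. In the double deletion it was 1106, 1014 and 930 at 0 min and 858, 845 and 946 at 20 min. The strains did not overlap at either time, and the double deletion after the shock was above the unshocked wild type on every array. The response difference was 2.60 ± 0.16 (adjusted p = 2.62e-10), with strain differences of 0.70 at 0 min and 3.30 at 20 min, and the change in the double deletion itself (-0.20) was not called.

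LTV1 (YKL143W), which acts in late small subunit maturation and export, had a response difference of 2.53 ± 0.29, with strain differences of 0.56 at 0 min (adjusted p = 0.0498) and 3.09 at 20 min. KRE33 (YNL132W), the RNA cytidine acetyltransferase of 18S rRNA, had 2.30 ± 0.20, and its double deletion signal fell from 3602, 3225 and 3132 to 1264, 1335 and 1092. The wild type signal of KRE33 fell from 2681, 2450 and 2526 to 249, 193 and 146, so this gene fell in both strains. KRR1 (YCL059C), a processome protein, had a response difference of 2.28 ± 0.11 and YVH1 (YIR026C), a phosphatase that acts on the 60S precursor, had 2.29 ± 0.15. The large subunit factors YTM1 (2.16) and NUG1 (2.15), the processome gene ENP2 (2.16) and the helicase gene DHR2 (2.13) were close to these.

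The branches of the pathway had like medians. The median response difference was 1.00 for 63 genes of the small subunit processome and box C/D snoRNPs (49 higher, 1 lower), 1.10 for 14 late 40S genes (10 higher) and 1.08 for 75 genes of 60S assembly and export (64 higher). UTP22 (YGR090W), a processome gene, was the 1 lower member at -0.60 ± 0.22 (adjusted p = 0.0478). Its signals at 20 min were 617, 556 and 430 in the wild type and 409, 367 and 234 in the double deletion. The call of UTP22 was lost in 10 of 20 alternative settings, where its adjusted p ranged from 0.0124 to 0.147, among them 8 of the 12 that leave out 1 array. The 20 settings quoted for single genes do not include poly(A) spike-in and hybridization control centring.

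**Figure D2:**
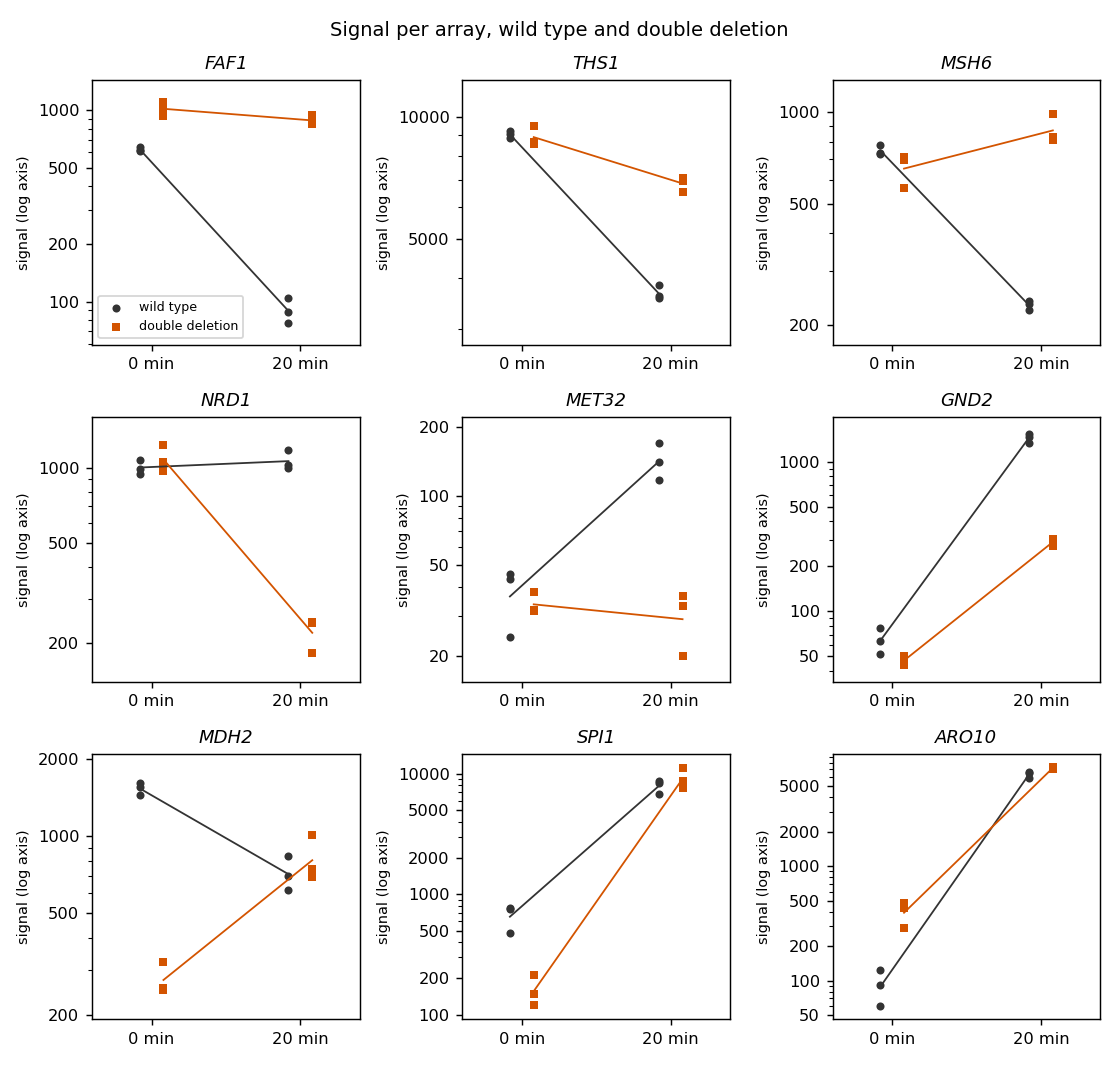
Signal per array (log axis) at 0 min and 20 min for 9 genes, circles for the wild type and squares for the double deletion, with lines joining the geometric means of 3 arrays. FAF1, THS1 and MSH6 part widely at 20 min with the double deletion above, NRD1, MET32 and GND2 part at 20 min with it below, and MDH2, SPI1 and ARO10 start apart at 0 min and lie close together at 20 min.

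Other genes of RNA and protein production were higher in response with a smaller size. Of 37 RNA polymerase I and III genes, 14 were higher (against 15% of all genes), each set mainly at 20 min (against 10.6%). In this list 1 was lower (against 12.8%), and the median was 0.32. RPA49 (YNL248C), a polymerase I subunit, had signals of 526, 349 and 282 in the wild type and 1707, 1393 and 1138 in the double deletion at 20 min, with a response difference of 1.55 ± 0.27. RPC19 (YNL113W), a subunit shared by polymerases I and III, fell by 0.92 in the wild type, whereas in the double deletion it rose by 0.21. Of 50 tRNA modification and processing genes, 25 were higher (against 15% of all genes) and 3 lower (against 12.8%), with a median of 0.39. The largest higher values were those of TRM1 (YDR120C, 1.90 ± 0.23), which dimethylates a guanosine of tRNA, GCD10 (1.60) and TRM3 (1.50).

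Aminoacyl tRNA synthetase genes differed in response without a called difference at the start. Of 20, 13 were higher (against 15% of all genes), each set mainly at 20 min (against 10.6%). Limma called 0 at 0 min in either direction (24.4% of all genes were called), with 1 at an unadjusted p under 0.05. At 20 min 14 were called higher, against 20.9% of all genes. The median strain difference was 0.03 at 0 min and 0.49 at 20 min. THS1 (YIL078W), the threonyl tRNA synthetase, had signals of 9210, 8870 and 9085 in the wild type and 8693, 8582 and 9494 in the double deletion at 0 min, which overlap. At 20 min they were 3848, 3574 and 3612 against 6543, 7064 and 6969, which do not. Its response difference was 0.92 ± 0.08 (adjusted p = 6.95e-08). The methionyl and isoleucyl synthetase genes MES1 (0.79 ± 0.07) and ILS1 (0.79 ± 0.08) followed.

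Of 127 cytosolic ribosomal protein genes, limma also called 0 at 0 min, with 1 at an unadjusted p under 0.05. Of the 127, 46 were higher in response (against 15% of all genes), 36 set mainly at 20 min (against 10.6%) and 10 undecided (against 3.1%). A lower response was called for 4 (against 12.8%), and the median was 0.16. Median centring gave 24 higher and 8 lower with a median of 0.07, and hybridization control centring 7 and 1. Without the wild type's 20 min array of replicate 3 the median was 0.09 with 13 lower, without that of replicate 1 it was 0.25 with 2 lower, and without the double deletion's 20 min array of replicate 1 or 3 there were 11 and 2 lower. RPS25B (YLR333C) had 0.72 ± 0.09 and RPS18A (YDR450W) 0.64 ± 0.16. The 4 lower ones were RPL31B, RPL36A, RPL9B and RPS7B, of which RPL31B falls outside the rule for named genes and was chosen after its values were seen. RPL9A (0.70) and RPL9B (-0.58) had opposite signs, and since they are near-identical copies their probe sets may share signal. Of 34 translation factor genes, 10 were higher (against 15% of all genes) and 1 lower (against 12.8%). These became 6 and 1 after median centring. Among the 10 were TEF4 (YKL081W, 0.92 ± 0.15), a subunit of elongation factor 1B, and TIF3 (0.76 ± 0.09), initiation factor 4B.

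In metabolism and transport some members were called and most were not. Of 50 amino acid synthesis genes outside the arginine and sulfur branches, 17 were higher (against 15% of all genes), 15 of them set mainly at 20 min (against 10.6% of all genes), 4 were lower and 29 were not called. TRP2 (YER090W), of tryptophan synthesis, lies near the deleted DOT6, as given above. It kept its level in the double deletion, with 2484, 2346 and 2289 at 0 min and 2480, 2379 and 2514 at 20 min. In the wild type it went from 2512, 2296 and 2315 to 1408, 1206 and 1194. HIS6, of histidine synthesis, had 1.06 ± 0.10 and PRO1, of proline synthesis, 0.93 ± 0.14. Of 23 purine genes, 6 were higher (against 15% of all genes), 5 set mainly at 20 min and 1 mainly at 0 min, and 1 was lower (against 12.8%). The higher ones were 10 without the wild type's 20 min array of replicate 1. GUA1 (YMR217W), the GMP synthase, was higher by 1.52 ± 0.16. Of 22 nuclear import and export genes, 6 were higher (against 15% of all genes) and 3 lower (against 12.8%). These became 3 and 5 after median centring. The largest higher value was that of KAP123 (YER110C, 1.81 ± 0.12), an importin of ribosomal proteins.

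Of 43 chaperone and heat shock protein genes, 7 were higher (against 15% of all genes) and 4 lower (against 12.8% of all genes) in response, shares near those of all genes. The median of 0.06 turned to -0.03 after median centring, with 5 higher and 7 lower, and to -0.01 after spike-in centring. The 4 higher ones set mainly at 20 min (against 10.6% of all genes) were CNS1 (YBR155W, 1.11 ± 0.12), an Hsp90 cochaperone, SSZ1 (YHR064C, 0.90 ± 0.13) and ZUO1, which form the ribosome-associated complex, and CPR7, another Hsp90 cochaperone. ZUO1 (0.53) and CPR7 (0.53) were named after their values were seen. CNS1 fell by 1.11 in the wild type and was not called in the double deletion (-0.01).

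MSH6 (YDR097C), of DNA mismatch repair, and BUD27 (YFL023W), a prefoldin-like protein, moved in opposite directions in the 2 strains. MSH6 had signals of 738, 780 and 732 in the wild type at 0 min and 239, 234 and 224 at 20 min. In the double deletion it had 695, 713 and 563 at 0 min and 812, 830 and 985 at 20 min. The strain difference at 0 min (-0.20) was not called, although the arrays did not overlap, and that at 20 min was 1.91. BUD27 went from 614, 555 and 522 to 222, 201 and 156 in the wild type and from 934, 972 and 814 to 1254, 1322 and 1297 in the double deletion, with strain differences of 0.68 and 2.76. Among all genes called for heat shock in both strains, 37 fell in the wild type but rose without both genes, and 52 did the reverse.

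The 494 genes with a lower response set at 20 min were of several kinds. In the wild type 268 rose, of which 112 also rose in the double deletion, 112 were not called and 44 fell, and 133 fell in both strains. Background for these counts is that 51.0% of all genes rose in the wild type and 48.5% in the double deletion. Their median strain difference was -0.07 at 0 min and -0.69 at 20 min. At 0 min 417 of them were not called, 74 were called lower and 3 higher.

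NRD1 (YNL251C), an RNA-binding protein that ends transcription of short noncoding RNAs, and PCL1 (YNL289W), a G1 cyclin of the kinase Pho85, fell on heat shock in the double deletion while their change in the wild type was not called. NRD1 had signals of 1069, 990 and 946 at 0 min and 992, 1020 and 1180 at 20 min in the wild type. In the double deletion it had 1225, 1052 and 971 at 0 min, overlapping the wild type, and 240, 242 and 182 at 20 min. Its response difference was -2.38 ± 0.18 (adjusted p = 4.92e-09). PCL1 went from 218, 238 and 202 to 207, 252 and 217 in the wild type and from 175, 193 and 269 to 43.2, 39.5 and 40.1 in the double deletion, a response difference of -2.39 ± 0.19.

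NRD1 and PAP2 (YOL115W), the poly(A) polymerase of the TRAMP complex that marks RNA for the nuclear exosome, were the 2 lower members of a list of 21 exosome, TRAMP and Nrd1 genes. The other 9 called members were higher, against 15% of all genes, and the 2 lower ones compare with 12.8%. MTR4 (YJL050W), the helicase of TRAMP and the exosome, had a response difference of 1.93 ± 0.24, the exosome cofactor gene LRP1 had 1.60 ± 0.15 and the TRAMP gene AIR1 had 1.31 ± 0.26. PAP2 fell in both strains, by 0.69 in the wild type and by 1.67 in the double deletion, a difference of -0.98 ± 0.14. Of 41 cell cycle and replication genes, 7 were lower (against 12.8% of all genes) and 4 higher (against 15%). The 4 were 2 to 6 with 1 array left out. The G1 cyclin genes CLN1 (-1.04 ± 0.16) and CLN3 (-1.06 ± 0.26) were lower, as was PCL1.

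Sulfur assimilation and methionine genes were partly lower at both times. Of 33 genes, 13 were called lower at 0 min, against 16% of all genes, and 18 at 20 min, against 32.4%, and 2 were called higher at each time. For the response, 9 were lower, each set mainly at 20 min, 4 higher and 20 not called, against 12.8% lower among all genes. The median response difference was -0.06, and the median strain difference was -0.13 at 0 min, which turned to 0.17 after spike-in centring, and -0.33 at 20 min. MET32 (YDR253C), which encodes a zinc finger activator of the pathway, rose in the wild type from 45.8, 43.4 and 24.3 to 117, 170 and 141. In the double deletion it had 31.7, 38.0 and 31.6 at 0 min and 33.0, 36.7 and 20.1 at 20 min, a change that was not called. Its response difference was -2.17 ± 0.34 (adjusted p = 6.73e-05). MET28 (YIR017C), a cofactor of the activator Cbf1-Met4, rose by 2.56 in the wild type and by 0.58 in the double deletion. STR3 (YGL184C), a cystathionine beta-lyase, reached 426, 516 and 568 in the wild type and 121, 132 and 100 in the double deletion from overlapping levels of 24.2 to 35.8 at 0 min. MHT1 (YLL062C), which uses S-methylmethionine to make methionine, fell by 1.88 in the double deletion and was not called in the wild type (0.26).

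Some glucose sensing and cell wall genes were lower in response. Of 20 hexose transport and glucose sensing genes, 7 were lower (against 12.8% of all genes), 2 higher and 11 not called. The median of -0.21 lay between -0.47 and -0.15 with 1 array left out, beyond 1.5 times without the double deletion's 0 min array of replicate 1 or 2. HXT1 (YHR094C), the low-affinity glucose transporter, fell by 0.92 in the wild type and by 2.67 in the double deletion, where it reached 285, 239 and 183 against 819, 741 and 919. MIG2 (YGL209W), a glucose repressor, fell by 1.36 in the double deletion and was not called in the wild type (0.24). Of 26 cell wall genes, 10 were lower (against 12.8% of all genes), 1 higher (against 15%) and 15 not called (median -0.34). Without the double deletion's 0 min array of replicate 3 the median was -0.17, with 7 lower, without the wild type's 0 min array of replicate 2 there were 6 lower, and hybridization control centring left 4. TIR4 (YOR009W), a mannoprotein, rose by 0.85 in the wild type and fell by 0.49 in the double deletion.

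Some strongly induced genes rose less in the double deletion. GND2 (YGR256W), a 6-phosphogluconate dehydrogenase, went from 77.5, 52.2 and 63.5 to 1537, 1475 and 1345 in the wild type and from 46.3, 44.0 and 50.7 to 305, 272 and 297 in the double deletion. Its response difference was -1.88 ± 0.17, with strain differences of -0.44 at 0 min and -2.32 at 20 min. ALD3 (YMR169C), an aldehyde dehydrogenase, rose by 6.09 in the wild type and by 4.40 in the double deletion. SIP18 (YMR175W), a desiccation stress protein, rose by 4.14 and by 2.79. ARG3 (YJL088W), the ornithine carbamoyltransferase of arginine synthesis, went from 48.8, 34 and 36.8 to 457, 440 and 589 in the wild type. In the double deletion it went from 19.5, 17.9 and 27.9 to 88.1, 102 and 123. The strains did not overlap at either time.

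Of 60 general stress genes, 12 had a higher response (against 15% of all genes). Of the 12, 9 were set mainly at 0 min, 3 were undecided and 0 were set mainly at 20 min (against 10.6% of all genes). A lower response was called for 7, all set mainly at 20 min. The 9 compare with 1.33% of all genes, and the 7 with 9.16%, a share near that of all genes. Without the double deletion's 0 min array of replicate 3 there were 22 higher, and quantile normalization gave 15 lower. At 0 min 33 of the 60 were called lower in the double deletion and 1 higher, against 16% lower among all genes, with a median strain difference of -0.50. At 20 min 25 were lower and 3 higher, against 32.4% lower among all genes, with a median of -0.31. Per culture, the medians of the double deletion against the wild type mean were -0.70, -0.55 and -0.21 at 0 min, where culture 3 was the nearest to the wild type, and -0.31, -0.35 and -0.22 at 20 min. The median response per culture was 3.25, 3.27 and 2.95 in the wild type and 3.37, 3.38 and 2.97 in the double deletion, which overlap (two-sided exact permutation p = 0.5).

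SPI1 (YER150W), a stress-induced cell wall protein, shows a difference set before the shock. Its signal at 0 min was 771, 475 and 754 in the wild type and 214, 150 and 120 in the double deletion. At 20 min it was 6842, 8345 and 8689 against 7665, 8730 and 11237, and the strains overlapped. The response difference of 2.26 ± 0.35 (adjusted p = 5.66e-05) thus came with strain differences of -2.06 at 0 min and 0.20 at 20 min, the second not called. YRO2 (YBR054W), a plasma membrane protein, had 361, 254 and 366 against at most 87.8 on the arrays of the double deletion at 0 min, and 3782, 3818 and 4247 against 3194, 3518 and 4042 at 20 min.

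YGP1 (YNL160W), a secreted glycoprotein, was called lower at both times, with strain differences of -2.05 at 0 min and -0.37 at 20 min. BDH2 (-1.98 and -0.68) and CIS1 (-2.23 and -0.67) were also called lower at both times. SSE2 (YBR169C), an Hsp110 chaperone, started at 183, 190 and 206 against 427, 358 and 421 in the wild type, and its strain difference at 20 min (0.22) was not called. GLC3, the glycogen branching enzyme, had a response difference of 1.11 ± 0.36 with a strain difference of -1.06 at 0 min. The call of GLC3 was lost in 6 of the 12 settings that leave out 1 array. Its adjusted p ranged from 0.00197 to 0.0809 over the same 20 settings, which leave out poly(A) spike-in and hybridization control centring.

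MDH2 (YOL126C), the cytosolic malate dehydrogenase of gluconeogenesis, was called for heat shock in opposite directions in the 2 strains. Its signal at 0 min was 1554, 1609 and 1446 in the wild type and 250, 253 and 322 in the double deletion. At 20 min it was 831, 613 and 698 against 743, 692 and 1008, and the strains overlapped. The wild type fell by 1.11 while the double deletion rose by 1.55, a response difference of 2.67 ± 0.18 (adjusted p = 1.80e-09). The strain difference was -2.49 at 0 min and 0.18, not called, at 20 min. Of 23 genes of gluconeogenesis, the glyoxylate cycle and fatty acid oxidation, MDH2 was the 1 higher member, against 15% of all genes. In this list 3 were lower, a share near the 12.8% of all genes.

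Mating genes were also among the 72. Of 22 a-cell, haploid and pheromone genes, 6 had a higher response (against 15% of all genes) and 2 a lower one (against 12.8%). Of the 6, 5 were set mainly at 0 min (against 1.33% of all genes). The 6 were 4 to 6 with 1 array left out and 2 in the fit of the 12 arrays alone, and the 2 were 1 to 6, the highest without the wild type's 20 min array of replicate 3. AGA1 (YNR044W), the anchor subunit of a-agglutinin, had 847, 1122 and 1037 in the wild type and 356, 336 and 331 in the double deletion at 0 min, and 235, 185 and 186 against 202, 191 and 123 at 20 min. Its response difference was 1.29 ± 0.22. FIG1 (YBR040W), needed for mating, was not well above background on any array of the double deletion. At 0 min it gave 21.5, 43.4 and 39.3 in BY4741 arrays, and the double deletion was lower by at least 3.14-fold, and at 20 min it was above background on 1 of 3 wild type arrays. Its fitted response difference therefore rests on the 0 min level of the wild type alone. As a list these genes were lower in the double deletion at both times, with medians of -0.56 at 0 min and -0.77 at 20 min. Their median responses per culture overlapped between the strains, with a mean of -1.29 in each.

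The 72 genes with a higher response set at 0 min had a median strain difference of -0.69 at 0 min and -0.06 at 20 min. Of the 72, 55 rose in both strains. At 20 min 53 were not called, 18 were still called lower in the double deletion and 1 higher. Their number depended on 1 array: without the double deletion's 0 min array of replicate 3 it was 125.

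The 31 genes with a lower response set at 0 min started higher in the double deletion, with a median strain difference of 0.56 at 0 min and 0.07 at 20 min. ARO10 (YDR380W), the phenylpyruvate decarboxylase that turns aromatic amino acids into fusel alcohols, had 60.2, 124 and 91.7 in the wild type and 288, 481 and 434 in the double deletion at 0 min. At 20 min it had 5886, 6506 and 6619 against 7047, 7251 and 7340. The strain difference was 2.15 at 0 min. At 20 min it was 0.19 and not called, although the arrays did not overlap. The response difference was -1.96 ± 0.35 (adjusted p = 2.45e-04). ARO9 (YHR137W), the aminotransferase of the same pathway, was higher by 1.07 at 0 min and by 0.39 at 20 min. PTR2 (YKR093W), a peptide transporter, had 985, 1078 and 1035 against 2130, 2665 and 2436 at 0 min and 1297, 1038 and 1034 against 1247, 1041 and 1181 at 20 min.

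The 4 members of the chaperone list with a lower response were ERO1, EUG1, KAR2 and PDI1, each set mainly at 0 min (against 0.575% of all genes). All 4 are known to act in the endoplasmic reticulum, for which no list of its own was tested. PDI1 (-0.27) was chosen after its values were seen. ERO1 (YML130C), the oxidase that makes disulfide bonds with Pdi1, had 1487, 1316 and 1247 in the wild type and 3075, 3151 and 3659 in the double deletion at 0 min, and 6742, 8653 and 10342 against 9268, 9947 and 10615 at 20 min. The strains overlapped only after the shock, and the response difference was -1.05 ± 0.18 (adjusted p = 1.34e-04). KAR2 (YJL034W), the Hsp70 of the endoplasmic reticulum, had a strain difference of 0.45 at 0 min and 0.07, not called, at 20 min. MPD1 (YOR288C), of the disulfide isomerase family, had 0.85 and 0.21, the second not called.

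For the undecided genes neither time gave a larger part that passed the test. Both strain differences were called and of opposite sign in 21 of the 167 higher and 22 of the 164 lower genes. URA1 (YKL216W), the dihydroorotate dehydrogenase of pyrimidine synthesis, had the largest called difference among genes above background on every array of all 4 groups. Its signal fell from 7806, 7375 and 7521 to 837, 649 and 595 in the wild type and from 2750, 2824 and 2651 to 1769, 1693 and 1796 in the double deletion. The double deletion was below the wild type before the shock and above it afterwards, with strain differences of -1.47 and 1.35 and a response difference of 2.82 ± 0.14 (adjusted p = 6.60e-12). URA4 (YLR420W), the dihydroorotase, crossed in the same way: 3053, 3116 and 2945 against 1704, 1739 and 1740 at 0 min, and 1111, 974 and 826 against 1801, 1846 and 1658 at 20 min.

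Of 14 pyrimidine genes, 5 had a higher response (against 15% of all genes), 2 set mainly at 20 min and 3 undecided, and 9 were not called. URA7 (YBL039C), a CTP synthase, was set mainly at 20 min (2.01 ± 0.22), with 499, 324 and 285 in the wild type and 1923, 1938 and 1823 in the double deletion. URA1, URA3 and URA4 are known targets of the activator Ppr1, which responds to intermediates of the pathway. The signal of URA3 followed the strain on every array, so for the pyrimidine genes the effect of URA3 and that of the 2 deletions cannot be told apart.

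PDC6 (YGR087C), a minor pyruvate decarboxylase, crossed the other way. Its signals were 29.8, 45.2 and 34.3 against 64.4, 73.7 and 62.3 in the double deletion at 0 min, and 142, 157 and 176 against 66.9, 72.1 and 46.5 at 20 min. The response difference was -2.27 ± 0.35. MTH1 (YDR277C), a regulator of hexose transporter genes, rose by 0.94 in the wild type and fell by 1.38 in the double deletion, but its arrays at 0 min spread widely, with 61.4, 87.9 and 235 in the double deletion. TMA10 (YLR327C), a ribosome-associated stress protein, had a response difference of 2.08 ± 0.63 (adjusted p = 0.0178) with neither strain difference called. The call of TMA10 was lost in 3 of the settings that leave out 1 array. Its adjusted p ranged from 0.00116 to 0.0593 over the same 20 settings, which leave out poly(A) spike-in and hybridization control centring.

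**Figure D3:**
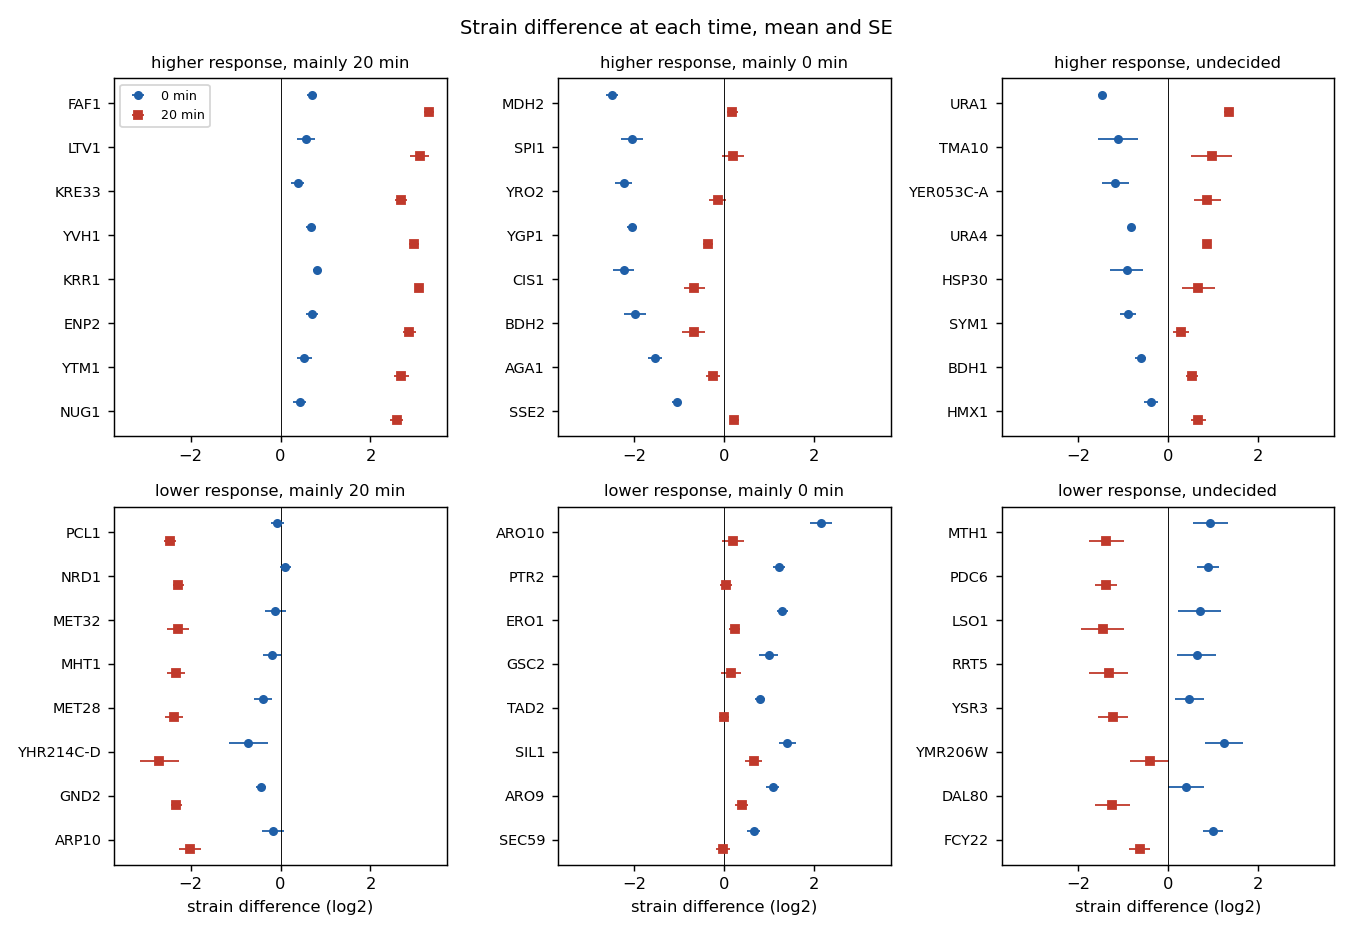
Strain difference (double deletion minus wild type, log2, mean and SE from limma with 3 arrays per group) at 0 min (circles) and 20 min (squares) for up to 8 named genes of each class, ordered by the size of the response difference; genes with a group at background are left out. In the left panels the 20 min value lies far from 0, in the middle panels the 0 min value does, and in the right panels both lie on opposite sides of 0.

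Many strain differences were called at both times without a called response difference. Of the genes called at 0 min, 847 were not called for the response difference. Called at both times in the same direction were 585 genes without a called response difference, 212 with a higher and 80 with a lower response. Of 66 mitochondrial ribosomal protein genes, 49 were called lower in the double deletion at 0 min, against 16% of all genes. At 20 min 49 were called lower, against 32.4% of all genes, and 41 were lower at both times. The 49 at 0 min became 2 after hybridization control centring and 0 after spike-in centring. For the response, 3 were higher (against 15% of all genes) and 2 lower (against 12.8%). The 2 lower in response became 13 after median centring and 5 without the wild type's 20 min or the double deletion's 0 min array of replicate 3. Their median strain difference was -0.28 at 0 min, which became 0.03 after spike-in centring, and -0.31 at 20 min, and their median response difference was -0.04. Of 20 Ras, protein kinase A and stress regulator genes, limma called 0 for the response difference, with 1 at an unadjusted p under 0.05, against 27.8% of all genes called.

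**Figure D4:**
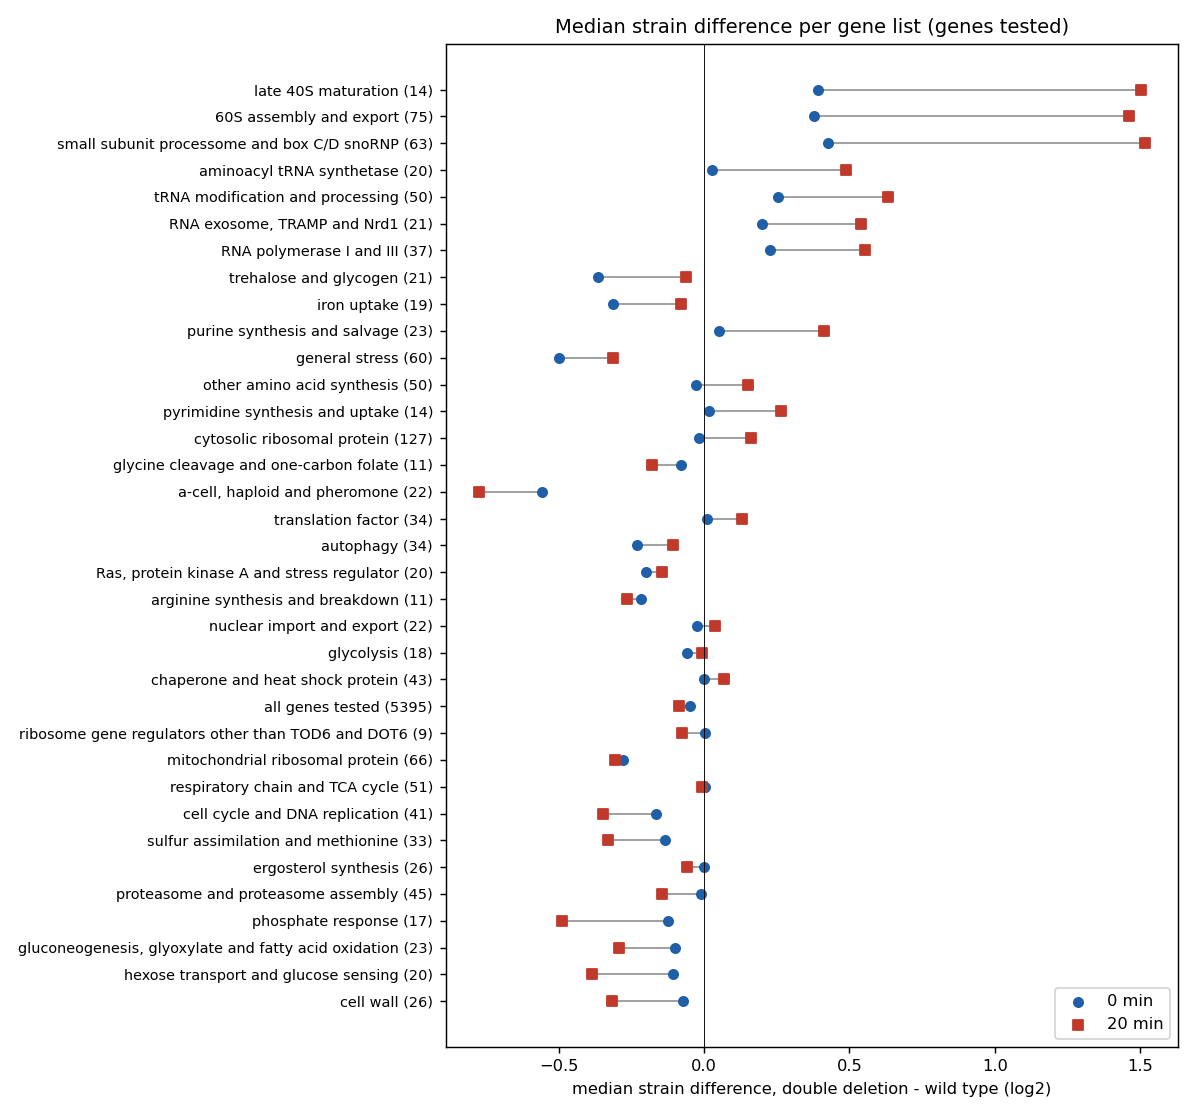
Median strain difference (double deletion minus wild type, log2) at 0 min (circles) and 20 min (squares) for each gene list, with the number of genes tested in parentheses, ordered by the median response difference. The 3 ribosome biogenesis lists lie between 0.38 and 0.43 at 0 min and between 1.46 and 1.52 at 20 min, and general stress genes lie at -0.50 and -0.31.

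The single deletions give values for the same lists, against the same wild type arrays, which all these comparisons share. The median response difference of the 152 ribosome biogenesis genes was 0.10 for the pbf1 deletion, 0.47 for that of pbf2 and 1.05 for both together. That of the 127 ribosomal protein genes was 0.06, 0.46 and 0.16, and that of the general stress genes 0.12, -0.13 and 0.21. Limma called 0 genes in the pbf1 deletion, with 183 at an unadjusted p under 0.05, and 92 in the pbf2 deletion (1.71%), against 1498 in the double deletion. The double deletion also differed from the wild type in URA3. In its values the effect of URA3 and that of losing both genes cannot be told apart. FAF1 had 0.20 (not called), 0.82 and 2.60, and NRD1 had -0.57 (not called), -0.86 and -2.38. SPI1 had 0.32, 0.05 and 2.26, MDH2 had -0.01, 0.23 and 2.67, and ARO10 had -0.75, 0.20 and -1.96, of which only the double deletion's values were called.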

How the data were processed

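Total RNA (5 ug per sample, per the labels) was hybridized to Affymetrix yeast arrays, 1 array per strain, culture and time. Each array's deposited column holds linear intensity, which the authors computed by MAS5 according to the submitters' processing notes, and image extraction used GeneChip Operating Software 1.4 per the authors' accompanying text. Tested on the values, the 2% trimmed mean was 500.3 to 500.4 on every array. The authors' deposited table lists, strain by strain, the log2 ratio between the 2 times, quoted only where named; its false discovery rates (q-value columns per the file headers) were not used. No genome build is named, so no coordinates are given.

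Of 10928 probe sets, 7244 carry 1 gene name, 1 several and 3683 none; 5498 name a S. cerevisiae gene, and the 1746 that name genes of other origin gave the background (9.40 to 11.6 over the 12 arrays). For 47 genes with several probe sets the brightest was taken, giving 5449 genes; 12 symbols were updated from the RefSeq gene table. A gene was tested (5395) if its mean log2 signal passed 2.35, the 90th percentile among these 1746; 54 were left out.

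Signals as deposited were converted to log2, and all 24 arrays were fitted as 8 group means with limma 3.58.1 in R 4.3.3 (lmFit, contrasts, eBayes with trend), two-sided. The larger part was tested by the sum of both strain differences: called with the sign of the response difference, a gene was set mainly at 20 min, and with the opposite sign, mainly at 0 min. Counts, medians and permutation tests used pandas 2.3.3 and scipy 1.17.1 under Python 3.11.15, and plots matplotlib 3.10.9. The fit was tested on simulated data. Alternatives changed the scaling, filter, pseudocount (16), variance model, arrays used, replicate block and class rule, and left out each array.

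A bound such as "at least 3.14-fold" sets the mean of the bright group against the background of the dim one. Named genes were TOD6, DOT6 and URA3, the 10 largest called differences of each sign in each class of time among genes above background on every array of 1 group, the 3 largest of each sign in each list, and genes called in opposite directions with a difference of at least 2. The comparison, gene lists and rules were chosen with earlier results of these data known. The labels say that each culture was divided between the times; the correlation of deviations between the parts of 1 culture was 0.19, 0.05 and 0.05 in the wild type and 0.02, 0.06 and 0.06 in the double deletion. The replicates are cultures, and the number of arrays limits the precision.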

Additional observations from a re-analysis of the deposited data

Results flagged for a closer look

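The response to heat shock differed between the double deletion and the wild type by the test of the difference itself for 809 genes with a higher and 689 with a lower response in the double deletion. Of the 89 genes called for heat shock in opposite directions in the 2 strains, 5 had a response difference of at least 2. MTH1 (-2.31) and YNL277W-A (-2.30) rose in the wild type and fell in the double deletion. BUD27 (2.07), MSH6 (2.11) and MDH2 (2.67) fell in the wild type and rose in the double deletion. For BUD27 and MSH6 the difference was set mainly at 20 min, for MDH2 mainly at 0 min, and for MTH1 and YNL277W-A it was undecided. YNL277W-A was above background on 0 of 3 wild type arrays at 0 min and on 1 of 3 double deletion arrays at 20 min. Groups of 3 arrays were not tested for single outlying samples.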

How the results depend on the processing

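No called gene changed sign in any setting that called it again. With the replicate block, fitted on 20 min minus 0 min per culture, 782 genes were higher and 680 lower, 1338 of the 1498 calls were kept, and ATG15, GSC2, HXT2, RPL9B, SIL1 and TPS3 were the named genes that lost theirs. Leaving out 1 array kept 1255 to 1339 calls, with 716 to 828 higher and 586 to 697 lower; the 20 min class held 487 to 608 higher and 417 to 479 lower genes, the 0 min class 57 to 125 and 23 to 29, and the undecided class 142 to 167 and 139 to 198. The 0 min class of 72 was 125 without the double deletion's 0 min array of replicate 3. The strain difference at 0 min had 273 to 516 higher and 624 to 904 lower genes, with 273 without wild type replicate 3 and 295 and 293 without double deletion replicates 1 and 2; that at 20 min had 1010 to 1159 and 1542 to 1810. Heat shock gave 2628 to 2767 rises and 1525 to 1619 falls in the wild type and 2523 to 2633 and 1571 to 1708 in the double deletion. Leaving out 1 culture moved the difference of the median ribosome biogenesis response between 1.11 and 1.32, and that of the stress list between -0.023 (without wild type culture 3) and 0.21, from 0.08.

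Poly(A) spike-in centring left 4 higher and 2 lower calls, in the 20 min class 2 and 1, in the 0 min class 1 and 0 and undecided 1 and 1; strain differences fell to 10 and 16 at 0 min and 300 and 52 at 20 min, and heat shock to 332 rises in the wild type and 319 rises and 2535 falls in the double deletion. With this centring 172 of 181 named genes lost their call. It moved the median strain difference of all genes from -0.05 to 0.26 at 0 min and from -0.09 to 0.15 at 20 min. The spike-in level had an SD of up to 0.58 within a group. Hybridization control centring gave 378 higher and 325 lower calls, in the 20 min class 309 and 200, in the 0 min class 29 and 17 and undecided 40 and 108, strain differences of 252 and 207 at 0 min and 946 lower at 20 min, and 1830 and 1700 rises in the wild type and double deletion, respectively; 42 of 181 named genes lost their call. Median centring gave 1047 lower calls, 45 higher genes in the 0 min class and 91 and 301 undecided, and quantile normalization gave 46 higher genes in the 0 min class and 521 lower genes at 0 min. The fit of 12 arrays alone gave 647 higher and 507 lower calls, with 41 and 20 in the 0 min class, and fewer residual degrees of freedom. The causes of the other changes were not tested.

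Classed by which strain difference was called, 459 higher and 523 lower genes were called at 20 min only and 86 and 45 at 0 min only. Classed by the share of the 20 min part, 591 and 530 lay at 20 min and 86 and 41 at 0 min. The planned search of promoter motifs was not run. Of 4 reversed values the others are not called: TOD6 (1.20, and -0.086 to 2.12 with 1 array left out, the lowest without double deletion 0 min replicate 2) and URA3 (-0.64, 0.16 after quantile normalization, and -1.38 to 0.26 with 1 array left out, the highest without wild type 0 min replicate 2).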

Other observations

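Of 19 iron uptake genes, 6 were called lower in the double deletion at 0 min (against 16% of all genes). For the response, 7 were higher (against 15% of all genes), 3 set mainly at 20 min, 1 mainly at 0 min and 3 undecided, 1 was lower and 11 were not called. The median responses per culture overlapped between the strains (two-sided exact permutation p = 0.6). The median strain difference was -0.31 at 0 min and -0.08 at 20 min, the second 0.16 after spike-in centring. SIT1, a siderophore transporter, rose by 1.16 in the double deletion and was not called in the wild type (-0.32), and HMX1, the heme oxygenase, rose by 2.85 in the wild type and by 3.90 in the double deletion. Of 26 ergosterol synthesis genes, 7 were lower (against 12.8% of all genes), each set mainly at 20 min (against 9.16%). The 7 became 3 after hybridization control centring. In this list 4 were higher, a share near the 15% of all genes. Of 17 phosphate response genes, 4 were lower (against 12.8% of all genes), each set mainly at 20 min (against 9.16%), and 13 were not called. The 4 were 1 to 5 with 1 array left out, at 2 or fewer in 7 of 12 settings, the lowest without the double deletion's 20 min array of replicate 3.

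The genes of the list of trehalose and glycogen metabolism had a median strain difference of -0.37 at 0 min and -0.06 at 20 min. The second turned to 0.01 and 0.17 after hybridization control and spike-in centring. Of 21 genes, 3 had a higher response, a share near the 15% of all genes, and 1 a lower one (against 12.8%). The 3 were 1 to 11 with 1 array left out, with 11 without the double deletion's 0 min array of replicate 3, 5 without the wild type's 0 min array of replicate 1, and 1 without the double deletion's 0 min array of replicate 1 or 2, the wild type's 0 min array of replicate 3 or the double deletion's 20 min array of replicate 3. PGM1, a phosphoglucomutase, fell by 1.36 in the wild type and by 0.23 in the double deletion and was set mainly at 20 min. CAN1, the arginine permease, fell by 1.08 in the double deletion and was not called in the wild type (-0.04).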
